A study of Homo sapiens with 12 samples.

Results

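The genes described here encode the plasminogen activators and pericellular proteases of rhabdomyosarcoma (RMS) cells: PLAU, PLAUR, PLAT, SERPINE2, MMP2, MMP14, TIMP1, TIMP2 and TIMP3. They were taken by symbol from a table of 65975 gene identifiers, and each of the 9 members was found once, under an identifier of its own. RNA had been sequenced from 12 libraries, 3 in each of 4 groups. RD, a fusion-negative RMS (FN-RMS) cell line grown in DMEM, and Rh30, a fusion-positive RMS (FP-RMS) line grown in RPMI, stably carried a lentiviral shRNA, either the control (Scramble) or 1 shRNA against KDM3A (KDM3A-sh, named KDM3A-sh2 in the study's methods), and all 4 had been selected with puromycin. KDM3A is a demethylase of lysine 9 of histone H3, and the knockdown asks which genes depend on it. Only 1 shRNA against KDM3A was sequenced, so loss of KDM3A and other effects of that shRNA cannot be told apart. Each subtype is represented by 1 line, so line, subtype and growth medium cannot be told apart. Nothing in the sources ties the 3 libraries of each group to separate cultures, and the p-values thus measure a spread between libraries that may be technical.

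Plasminogen is cleaved to plasmin by the urokinase-type activator (PLAU), which is held at the cell surface by its receptor (PLAUR), and by the tissue-type activator (PLAT). Serpins such as SERPINE2 (protease nexin-1) trap these activators. At the cell surface the membrane-anchored metalloproteinase MMP14 activates the gelatinase MMP2 in a complex that contains TIMP2, and the TIMP proteins inhibit metalloproteinases. Tumor cells are known to use both systems to degrade and remodel the matrix around them.

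Expression is given in FPKM, fragments scaled for the exon length of the gene and for the size of the library. Each library had 17473 to 17983 genes of at least 1 FPKM, and libraries within a group had Pearson's correlations of 0.987 to 0.989 across genes. Read numbers cannot be recovered from FPKM. The steps between low values put each library's depth, as a multiple of the median library, at 1.05 to 1.20 in RD Scramble and 0.874 to 1.00 in RD KDM3A-sh, and at 0.997 to 1.05 and 0.943 to 0.990 in the respective Rh30 groups. The myogenic factors MYOD1 and MYOG were present in every library, at 107 or more and 164 or more FPKM, while the muscle factor MYF5 was at or near 0 in all of them. The muscle marker list (6 genes, 1 of them under 1 FPKM throughout) summed to 2123 to 2343 FPKM in RD Scramble and 2629 to 2751 in RD KDM3A-sh, and to 2453 to 2724 and 2830 to 2861 in Rh30. The sum hides genes that moved apart by limma's test. In RD, CHRNA1 (0.42) and DES (0.23) rose with KDM3A-sh while CDH15 (-0.60), MYOD1 (-0.24) and MYOG (-0.14) fell, and in Rh30 MYOG (0.56) and MYOD1 (0.28) rose while CHRNA1 (-0.64) and CDH15 (-0.25) fell, all as log2 fold changes. Of the leukocyte markers, PTPRC and CD3E stayed under 0.1 FPKM in each library, and CD68 ran from 14.7 to 16.6 FPKM in RD Scramble and from 21.9 to 24.1 in RD KDM3A-sh. The epithelial and endothelial lists summed to at most 7.13 and 1.83 FPKM. What part the depth and the muscle genes have in the changes below was not tested.

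KDM3A itself was measured at 35.8, 33.9 and 30.9 FPKM in the RD Scramble libraries and at 12.0, 11.2 and 13.4 FPKM in RD KDM3A-sh. Rh30 cells had it at 27.8, 29.2 and 32.0 FPKM with Scramble and at 13.7, 13.2 and 15.4 FPKM with KDM3A-sh. In both lines every KDM3A-sh library was thus below every Scramble library. Tests used limma on log2(FPKM + 1), with p adjusted over all genes tested and a threshold of 0.05, and fold changes, written as log2 values with 95% intervals or standard errors, are on this scale. An exact permutation test of 1 gene in 3 against 3 libraries cannot go below p = 0.1, so smaller p-values rest on limma's model of the spread.

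All 9 members passed the filter of a mean of 1 FPKM in every comparison. In RD cells KDM3A-sh lowered 3 of them (PLAU, PLAUR and MMP2) and raised 5 (PLAT, SERPINE2, MMP14, TIMP2 and TIMP3), where 19.5% of the 17988 genes tested were lower and 21.6% higher. In Rh30 cells it lowered 5 (PLAU, PLAT, MMP14, TIMP2 and TIMP3) and raised 1 (SERPINE2), where 13.2% of 17803 genes were lower and 15.3% higher. PLAU was thus lower and SERPINE2 higher in both lines, while PLAT, MMP14, TIMP2 and TIMP3 were higher in RD and lower in Rh30. Among the 15970 genes tested in both lines, 6.84% were lower in both, 6.51% higher in both and 2.00% higher in RD and lower in Rh30. The groups did not overlap in any member in RD (53.4% of all genes tested) and in 8 of the 9 in Rh30 (45.8% of all genes tested), the exception being PLAUR. The members were picked with results of these data known, so these counts describe them and support nothing beyond them.

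**Figure D1:**
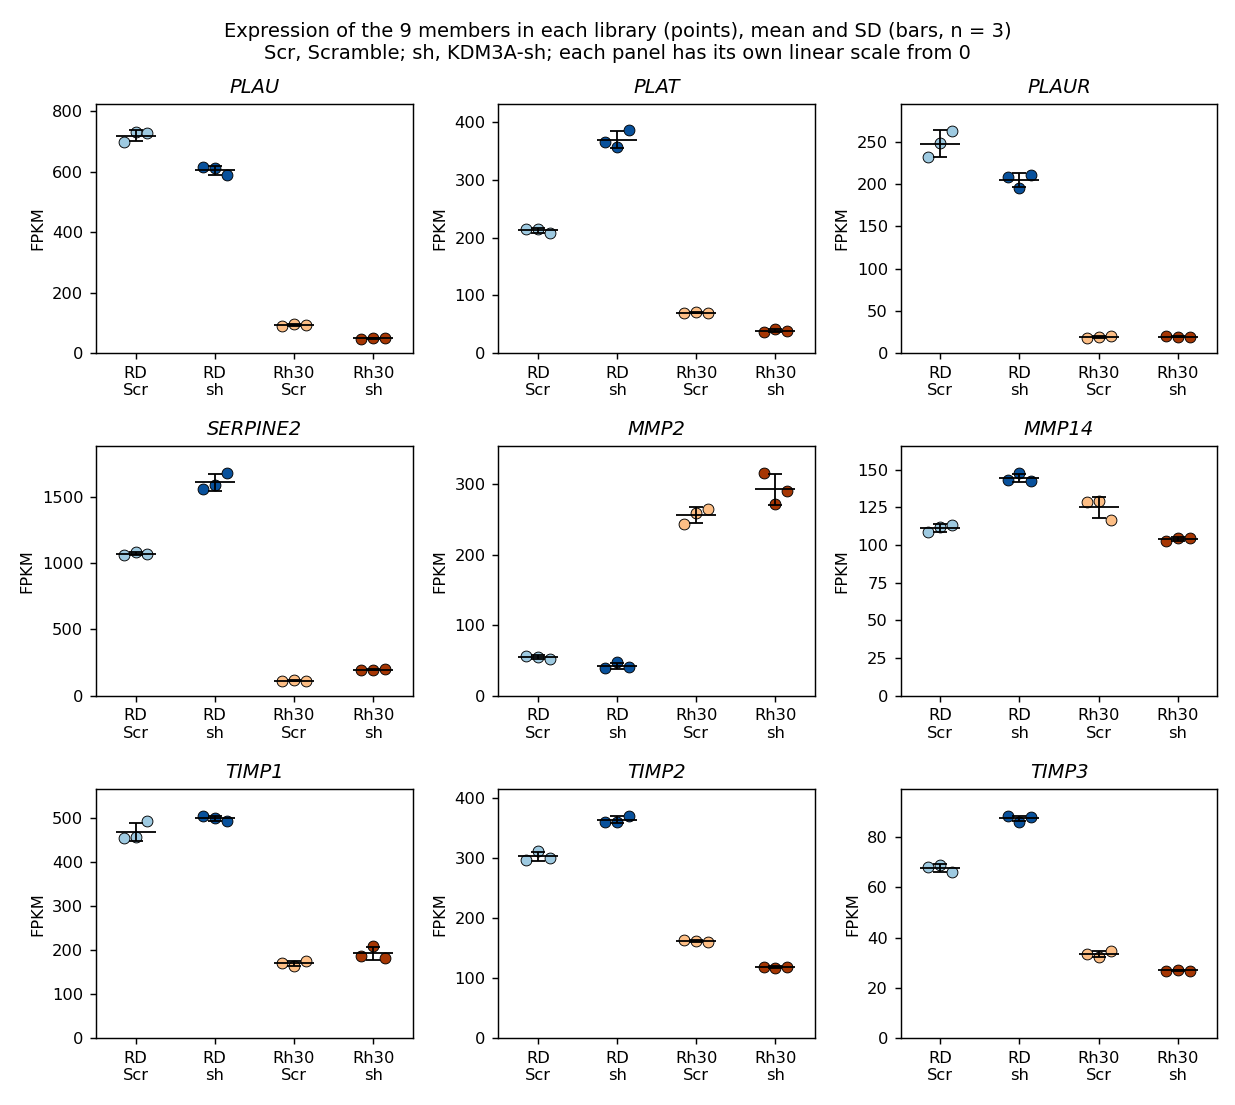
FPKM of each member in the 12 libraries (points, coloured by group), with the mean and SD of each group (bars, n = 3), on linear axes from 0 with a scale for each gene. PLAT, MMP14, TIMP2 and TIMP3 rise from Scramble to KDM3A-sh in RD and fall in Rh30, PLAU falls and SERPINE2 rises in both, and in all but MMP2 and MMP14 the RD libraries lie above the Rh30 libraries.

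PLAU (ENSG00000122861), the urokinase-type activator, lies on chromosome 10 of GRCh38 from 73909177 to 73917497 on the plus strand. The study singled it out from these same libraries, so its direction here is not independent evidence. The study reports that KDM3A regulation of PLAU also held in a check of both its FP-RMS lines, Rh30 and Rh41. It names no FN-RMS line for that check. PLAU was at 699, 730.2 and 728 FPKM in RD Scramble and at 614, 611 and 588 FPKM in RD KDM3A-sh. The Rh30 libraries had 90.7, 96.1 and 93.0 FPKM with Scramble and 48.3, 50.4 and 49.7 FPKM with KDM3A-sh. The KDM3A-sh libraries were the low ones in both lines, and RD was far above Rh30 under either shRNA. The change was -0.25 in RD (standard error 0.03, limma adjusted p = 0.00118) and -0.90 in Rh30 (0.04, 7.22e-05), to 0.841 and 0.535 of the Scramble level of FPKM + 1. In RNA from whole cultures, fewer expressing cells and less RNA per cell cannot be told apart. C10orf55, which overlaps PLAU on the opposite strand, was at most at 0.898 FPKM.

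PLAUR (ENSG00000011422), the urokinase receptor, lies on chromosome 19 from 43646095 to 43670547 on the minus strand. In RD it was at 232, 248 and 263 FPKM with Scramble and at 208, 195 and 211 FPKM with KDM3A-sh. Rh30 levels of PLAUR were 18.1, 18.8 and 20.8 FPKM with Scramble and 19.9, 19.2 and 18.7 FPKM with KDM3A-sh. The receptor therefore fell along with its ligand in RD, while the groups overlapped in Rh30, where the ligand fell. PLAUR changed by -0.27 in RD (-0.40 to -0.14, limma adjusted p = 0.00747). It was 0.0062 in Rh30 (-0.15 to 0.16, limma adjusted p = 0.955), with a sign that turned under both other scalings. That interval leaves room for a fall or a rise smaller than the -0.27 estimated in RD.

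PLAT (ENSG00000104368), the tissue-type activator, lies on chromosome 8 from 42175233 to 42207724 on the minus strand. It was at 216, 215 and 207 FPKM in RD Scramble and at 365, 357 and 386 FPKM in RD KDM3A-sh. For Rh30, PLAT was at 69.6, 70.9 and 69.0 FPKM with Scramble and at 36.6, 41.6 and 39.1 FPKM with KDM3A-sh. The same shRNA thus went with the highest PLAT level in one line and the lowest in the other. The changes were 0.79 in RD (0.70 to 0.89, limma adjusted p = 2.47e-05) and -0.82 in Rh30 (-0.95 to -0.70, 0.000206). These were the largest rise in RD and, after PLAU, the largest fall in Rh30 among the members. The ratio of PLAU to PLAT fell in RD from 3.24, 3.40 and 3.51 to 1.68, 1.71 and 1.52. The Rh30 ratios were 1.30, 1.35 and 1.35 with Scramble and 1.32, 1.21 and 1.27 with KDM3A-sh, so that there the 2 activators had gone down together and their ratios overlapped between the groups.

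SERPINE2 (ENSG00000135919), an inhibitor of thrombin, plasmin and both plasminogen activators, lies on chromosome 2 from 223975112 to 224039319 on the minus strand. It was at 1059, 1079 and 1070.0 FPKM in RD Scramble and at 1558, 1586 and 1677 FPKM in RD KDM3A-sh. Its levels in Rh30 were 111, 117 and 112 FPKM with Scramble and 195, 197 and 199 FPKM with KDM3A-sh. Its rise in both lines left no overlap between the groups. SERPINE2 changed by 0.59 in RD (0.50 to 0.67, limma adjusted p = 4.93e-05) and 0.79 in Rh30 (0.71 to 0.87, 7.22e-05). By mean FPKM it ranked 120th of 65974 genes in RD Scramble and 60th in RD KDM3A-sh. In Rh30 it ranked 1838th and 975th.

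MMP2 (ENSG00000087245), the gelatinase that cleaves denatured collagens and collagen IV, lies on chromosome 16 from 55389700 to 55506691 on the plus strand. It was the one member far higher in Rh30. It was at 56.8, 55.6 and 52.6 FPKM in RD Scramble and at 39.4, 47.7 and 40.1 FPKM in RD KDM3A-sh. The Rh30 libraries had it at 244, 259 and 265 FPKM with Scramble and at 315, 272 and 290 FPKM with KDM3A-sh. The KDM3A-sh libraries were the low ones in RD and the high ones in Rh30. The fall in RD passed the threshold (log2 fold change -0.37, -0.56 to -0.19, limma adjusted p = 0.00876). The difference in Rh30 did not (0.19, 0.04 to 0.34, adjusted p = 0.0602), although it passed without KDM3A-sh replicate 2 (0.24, adjusted p = 0.0383).

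MMP14 (ENSG00000157227), the membrane-anchored activator of MMP2, lies on chromosome 14 from 22836557 to 22849027 on the plus strand. It was at 109, 112 and 113 FPKM in RD Scramble and at 143, 148 and 142 FPKM in RD KDM3A-sh. For Rh30, MMP14 was at 128, 129 and 117 FPKM with Scramble and at 102, 105 and 104 FPKM with KDM3A-sh. MMP14 changed by 0.37 in RD (0.29 to 0.45, limma adjusted p = 0.000255) and -0.26 in Rh30 (-0.38 to -0.15, 0.00859). MMP14 and its substrate MMP2 were thus moved to opposite sides in RD.

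TIMP2 (ENSG00000035862), which both inhibits metalloproteinases and bridges MMP14 and MMP2, lies on chromosome 17 from 78852977 to 78925387 on the minus strand. It was at 298, 312 and 299.9 FPKM in RD Scramble and at 361, 361 and 371 FPKM in RD KDM3A-sh. Rh30 levels of TIMP2 were 164, 162 and 160.1 FPKM with Scramble and 119.5, 116 and 119 FPKM with KDM3A-sh. As for MMP14, the KDM3A-sh libraries were high in RD and low in Rh30. TIMP2 changed by 0.26 in RD (0.19 to 0.34, limma adjusted p = 0.000811) and -0.45 in Rh30 (-0.52 to -0.37, 0.000258).

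TIMP3 (ENSG00000100234), the matrix-bound inhibitor, lies on chromosome 22 from 32801701 to 32863043 within SYN3 on the opposite strand, which was at most at 0.393 FPKM. It was at 68.3, 68.9 and 66.0 FPKM in RD Scramble and at 88.2, 86.1 and 87.8 FPKM in RD KDM3A-sh. Rh30 cells had TIMP3 at 33.5, 32.3 and 34.8 FPKM with Scramble and at 26.9, 27.2 and 26.8 FPKM with KDM3A-sh. It went the way of TIMP2 in both lines, with a log2 fold change of 0.36 in RD (0.28 to 0.45, limma adjusted p = 0.000336) and -0.30 in Rh30 (-0.41 to -0.19, 0.00445). TIMP1 (ENSG00000102265), a soluble inhibitor whose gene lies on chromosome X from 47582313 to 47586789, passed the threshold in neither line. It was at 453, 457 and 492 FPKM in RD Scramble and at 504, 499 and 493 FPKM in RD KDM3A-sh (log2 fold change 0.09, 0.0028 to 0.19, limma adjusted p = 0.0932). In Rh30 it was at 169.9, 164 and 175 FPKM with Scramble and at 187, 209 and 182 FPKM with KDM3A-sh (0.18, 0.04 to 0.32, adjusted p = 0.0634). Both differences were small and upward, and each passed in 2 alternative settings, in RD among them without Scramble replicate 3 (0.13, adjusted p = 0.0255).

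**Figure D2:**
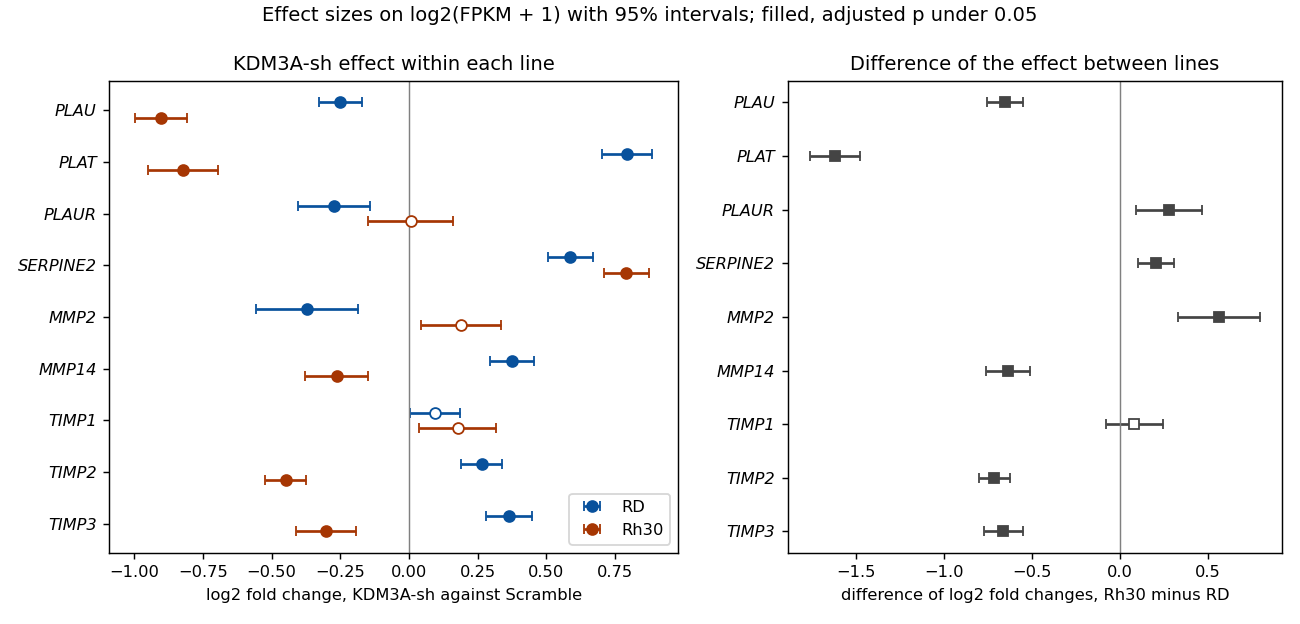
Left, the log2 fold change of KDM3A-sh against Scramble for each member in RD and in Rh30, with 95% intervals from limma. Right, the difference of these effects, Rh30 minus RD, with filled symbols for an adjusted p under 0.05. PLAT has the largest difference between lines (-1.62), and TIMP1 is the member whose difference did not pass.

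Whether the effect of KDM3A-sh differed between the lines was tested as the interaction of line and shRNA, fitted with limma to the 12 libraries together. A negative value means a larger fall, or a smaller rise, in Rh30. It was negative for 5 members and positive for 3, where 13.4% of 18517 genes were lower and 14.4% higher by the same test. With every library rescaled to the same FPKM sum, the share of positive values among the genes called fell from 51.7% to 40.6%. PLAT differed most, by -1.62 (standard error 0.06, limma adjusted p = 1.12e-07). TIMP2 followed with -0.71 (0.04, 8.42e-07), TIMP3 with -0.66 (0.05, 6.84e-06), PLAU with -0.65 (0.05, 4.58e-06) and MMP14 with -0.64 (0.06, 2e-05). The fall in PLAU was thus larger in Rh30 as a fold, although its drop in FPKM was larger in RD. The positive values were those of MMP2 (0.56, standard error 0.11, limma adjusted p = 0.00272), PLAUR (0.28, 0.08, 0.0311) and SERPINE2 (0.20, 0.05, 0.00698). The call for PLAUR was lost in 11 of 20 alternative settings, among them without RD Scramble replicate 2 or 3, RD KDM3A-sh replicate 2, Rh30 Scramble replicate 1 or 2, or Rh30 KDM3A-sh replicate 1 or 2 (0.23 to 0.28, adjusted p 0.0551 to 0.0723). TIMP1 did not pass (0.08, -0.08 to 0.24, adjusted p = 0.444).

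The 2 lines already differed under Scramble. Of the 9 members 7 were lower in Rh30 than in RD and 2 higher, where 39.6% of 18357 genes were lower and 35.0% higher. The log2 fold change of Rh30 against RD was -3.62 for PLAUR (standard error 0.07, limma adjusted p = 3.09e-08), -3.23 for SERPINE2 (0.03, 5.01e-09) and -2.93 for PLAU (0.04, 6.91e-09). These 3 were 12.3-fold, 9.35-fold and 7.64-fold lower in Rh30 on the scale of FPKM + 1, and the urokinase, its receptor and its inhibitor were thus the members with the widest gaps. PLAT (-1.59), TIMP1 (-1.46), TIMP3 (-0.99) and TIMP2 (-0.90) were also lower, each with a limma adjusted p of 1.45e-06 or less. MMP2 was higher in Rh30 by 2.20 (0.05, 5.38e-08), a 4.59-fold level. MMP14 was near the same level in both lines (0.16, 0.05 to 0.28, adjusted p = 0.0196), and its call was lost when libraries were rescaled to the same sum (0.05, adjusted p = 0.325) and without RD Scramble replicate 1 (0.15, 0.061), Rh30 Scramble replicate 1 (0.14, 0.0668) or Rh30 Scramble replicate 2 (0.14, 0.0633). That rescaling moved the median of all genes from -0.04 to -0.14 in this comparison.

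Since FPKM are scaled for length, the members can be ordered within a group. In RD Scramble the order of mean FPKM was SERPINE2 (1069), PLAU (719), TIMP1 (467), TIMP2 (303), PLAUR (248), PLAT (212), MMP14 (111), TIMP3 (67.7) and MMP2 (55.0), and the libraries of no 2 neighbours overlapped. In Rh30 Scramble it was MMP2 (256), TIMP1 (169.7), TIMP2 (162), MMP14 (125), SERPINE2 (113), PLAU (93.3), PLAT (69.8), TIMP3 (33.5) and PLAUR (19.2), with overlap between MMP14 and SERPINE2 alone. MMP2 was last in the one line and first in the other. With KDM3A-sh, PLAT rose past PLAUR and TIMP2 in RD to 369 FPKM, where its libraries overlapped those of TIMP2. SERPINE2 rose past MMP14, TIMP2 and TIMP1 in Rh30 to 197 FPKM, where its libraries overlapped those of TIMP1.

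The sum of the proteases PLAU, PLAT, MMP2 and MMP14 changed by a smaller share than any of the 4 did alone. It was 1080.0, 1112 and 1101 FPKM in RD Scramble and 1162, 1164 and 1156 FPKM in RD KDM3A-sh. In Rh30 it was 532, 556 and 544 FPKM with Scramble and 503, 468 and 483 FPKM with KDM3A-sh, so the sums moved up in RD and down in Rh30 without overlap. The sum of the inhibitors SERPINE2, TIMP1, TIMP2 and TIMP3 was 1878 to 1928 FPKM in RD Scramble and 2512 to 2629 in RD KDM3A-sh, and 476 to 482 and 526 to 549.8 in Rh30. Inhibitor transcripts per protease transcript thus stood at 1.72 to 1.75 and 2.16 to 2.27 in RD, and at 0.857 to 0.898 and 1.05 to 1.17 in Rh30. This ratio pools a serpin that traps plasminogen activators with TIMPs that inhibit metalloproteinases, and it describes neither system alone. In Rh30 mean SERPINE2 rose from 113.5 to 197 FPKM and TIMP1 was at 169.7 and 192.2 FPKM. TIMP2 fell there from 162.1 to 118.5 FPKM and TIMP3 from 33.5 to 27.0 FPKM. SERPINE2 was the member that gained most FPKM in both lines. Its ratio to PLAU and PLAT together was 1.14 to 1.16 in RD Scramble and 1.59 to 1.72 in RD KDM3A-sh, and rose from 0.691 to 0.703 to 2.14 to 2.29 in Rh30. The ratio of MMP2 to TIMP2 moved in opposite directions in the 2 lines. It was 0.191, 0.178 and 0.175 in RD Scramble and 0.109, 0.132 and 0.108 in RD KDM3A-sh, and in Rh30 it was 1.49, 1.60 and 1.66 with Scramble and 2.64, 2.33 and 2.42 with KDM3A-sh. These sums and ratios are given without a test, and transcript levels do not measure active enzyme.

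**Figure D3:**
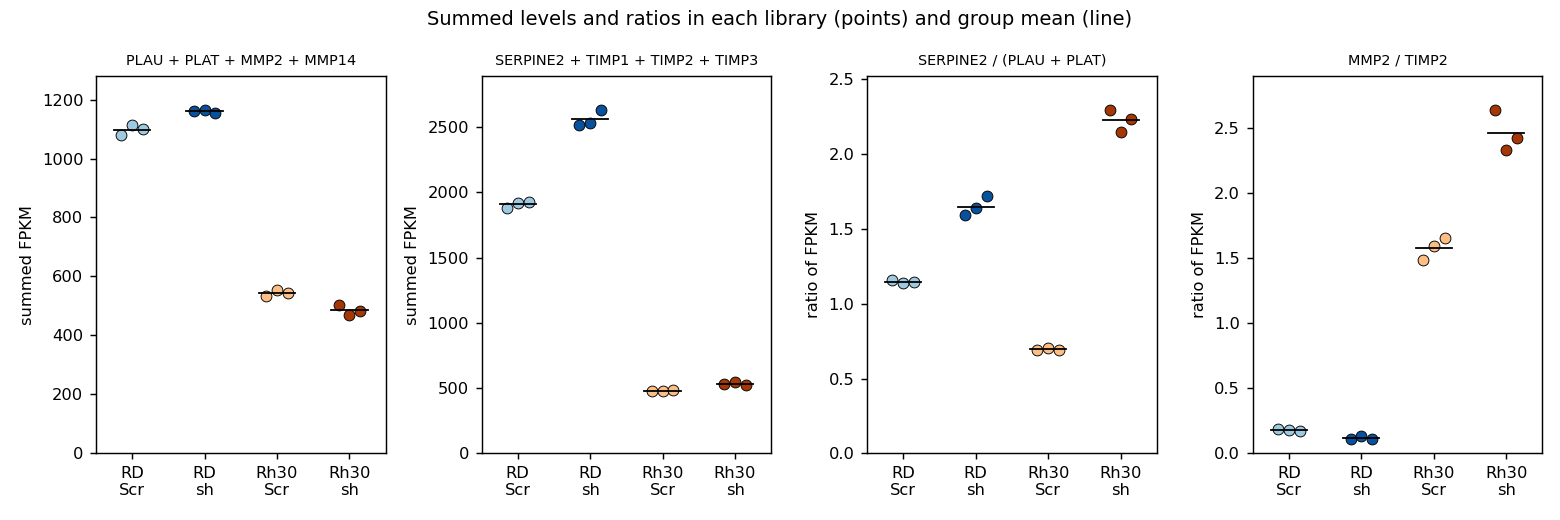
Summed FPKM of 4 proteases and of 4 inhibitors, and the FPKM ratios of SERPINE2 to both plasminogen activators and of MMP2 to TIMP2, in each of the 12 libraries (points) with the group mean (line), on axes from 0. The SERPINE2 ratio is higher with KDM3A-sh in both lines, while the ratio of MMP2 to TIMP2 is lower in RD and higher in Rh30.

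The partners of the members were read from lists of the plasminogen system, metalloproteinases, ADAM proteases and other pericellular proteases. Of 83 genes besides the members, 54 reached a mean of 1 FPKM in RD. Of these 7 were lower (13.0%, against 19.5% of all genes) and 19 higher (35.2%, against 21.6%). Their median log2 fold change was 0.16 against 0.01 over all genes. In Rh30 44 reached it, and 17 were lower (38.6%, against 13.2%) and 7 higher (15.9%, near the 15.3% of all genes). The median there was -0.11 against 0.03. Like the members, the pooled lists thus counted more rises in RD and more falls in Rh30. The lists differed in Rh30. Of the ADAM and ADAMTS proteases, 17 were tested there, with 9 lower and 0 higher. The other pericellular proteases went the opposite way in Rh30, with 1 lower and 5 higher of 14 tested. Their median there was 0.13 against 0.03 over all genes. The difference between lines was negative for 23 (44.2%, against 13.4% of all genes) and positive for 4 (7.7%, against 14.4%) of 52 genes. Its median was -0.28 against 0.02. Some of these genes were near 0 FPKM in Rh30 and not tested there, so their difference largely restates the change in RD. Examples are A2M among the positive (means of 0.10 and 0.19 FPKM in Rh30) and SERPINI1 among the negative (0.22 and 0.41 FPKM). Under the other settings the counts ran from 5 to 7 lower and 16 to 22 higher in RD, and from 11 to 20 lower and 4 to 8 higher in Rh30. A gene that reached the filter through 1 group alone had to differ, so the counts are no test of the lists.

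In the plasminogen system, S100A10, which with ANXA2 forms a cell surface complex that binds plasminogen and PLAT, rose by 0.68 to a mean of 1116 FPKM in RD (limma adjusted p = 1.85e-05) and changed by -0.69 to 112 FPKM in Rh30 (0.000195). ANXA2 changed by 0.32 (limma adjusted p = 0.00102) and by -0.25 (0.00377). LRP1, the endocytic receptor that clears activators bound to serpins, had 0.25 in RD (limma adjusted p = 0.00298) and -0.64 in Rh30 (0.000991). These 3 genes moved in the directions of PLAT in both lines. Plasminogen itself (PLG) was at most at 0.0975 FPKM in any library. Of the 17 genes on the plasminogen list, members included, 12 were tested in RD and 3 were lower and 7 higher, and 10 were tested in Rh30 and 6 were lower and 2 higher. Over all genes these shares were 19.5% and 21.6% in RD and 13.2% and 15.3% in Rh30, which the 3 lower genes in RD and the 2 higher genes in Rh30 were near.

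Among the other genes with the largest changes, FURIN, a convertase known to activate pro-MMP14, rose in both lines (log2 fold change 0.94 in RD, limma adjusted p = 9.03e-05, and 0.65 in Rh30, 0.00355). Its level was 26.7 to 30.8 FPKM in RD Scramble and 52.6 to 57.7 in RD KDM3A-sh, and 13.3 to 15.5 and 21.0 to 26.0 in Rh30. In RD, SERPINI1, a serpin that inhibits PLAT, rose by 0.75 (limma adjusted p = 0.00121), while the broad protease trap A2M (-0.84, 0.000307) and cathepsin S (CTSS, -0.72, 7.27e-05) fell. In Rh30 the aggrecan-cleaving proteases ADAMTS1 (-0.67, limma adjusted p = 0.00019) and ADAMTS5 (-0.56, 0.000466) fell. Of the metalloproteinases, 10 of 23 were tested in RD and 8 in Rh30, with 2 lower and 2 higher in RD, near the 19.5% and 21.6% of all genes, and 3 lower and 1 higher in Rh30, where all genes gave 13.2% and 15.3%. The other gelatinase, MMP9, was low everywhere. It was at 1.64 to 2.43 FPKM in RD Scramble and at 0.104 to 0.234 in RD KDM3A-sh, and at most at 0.224 FPKM in Rh30. It reached the filter only through RD Scramble, so no test of it is given, although it is 1 of the 2 counted as lower in RD. Likewise, MMP1 is among the 3 counted as lower in Rh30 and reached the filter there only through Scramble. TIMP4 reached 0.0397 FPKM at most, so its relatives TIMP1, TIMP2 and TIMP3 were the TIMPs expressed. RECK, a membrane-anchored inhibitor, was at 21.4 to 22.6 FPKM in RD Scramble and 22.6 to 24.7 in RD KDM3A-sh (0.12, adjusted p = 0.121), and fell in Rh30 from 7.10 to 7.78 to 5.35 to 6.29 (-0.35, 0.0246).

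**Figure D4:**
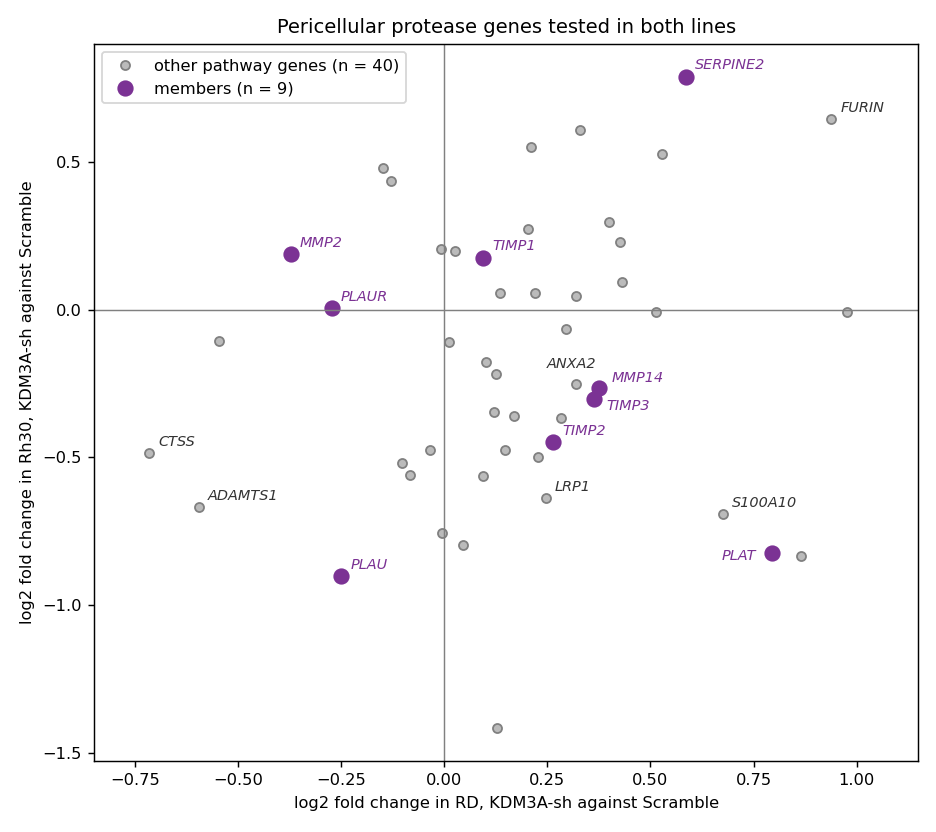
Log2 fold change of KDM3A-sh against Scramble in RD (horizontal) and in Rh30 (vertical) for the 9 members and the 40 other listed genes tested in both lines, with selected names. PLAT, MMP14, TIMP2 and TIMP3 lie in the quadrant of rises in RD and falls in Rh30 together with S100A10, ANXA2 and LRP1, SERPINE2 lies with FURIN among rises in both, and PLAU lies with ADAMTS1 and CTSS among falls in both.

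The shapes of the members' profiles were compared by the distance between their 4 group means of log2(FPKM + 1), each gene centred on its own mean, so that a distance of 0 is an identical shape. TIMP2 and TIMP3 were the nearest pair of members (0.144), and MMP2 and PLAUR were the farthest apart (5.96). Among 11017 genes whose mean reached 10 FPKM, S100A10 was nearest to PLAT (0.255), ahead of TGFBR3 (0.330) and ABCA2 (0.350). The genes nearest to PLAU were MIR1307 (0.202), DUSP6 (0.236) and CTXN1 (0.323). The distance includes the gap between the lines, so a near gene need not share the change with KDM3A-sh. In RD Scramble and RD KDM3A-sh, DUSP6 had means of 430.1 and 433.8 FPKM, while MIR1307 (59.5 and 51.0) and CTXN1 (44.7 and 37.6) were lower with KDM3A-sh. MIR1307 is a microRNA gene, and a value for such a short gene in a messenger RNA library is uncertain. Nearest to MMP14 were ECE1 (0.051), YPEL5 (0.073) and MXRA7 (0.089), and nearest to TIMP3 were STARD10 (0.024), MAPK8IP1 (0.069) and TUBA1A (0.091).

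The 3' untranslated regions were searched for the word TGAAGCA and its 6-base parts TGAAGC and GAAGCA on the sense strand, because the full word is frequent among the genes that fell. Of 921 genes that were lower in both lines and have a 3' UTR of 50 bases or more, 36.9% hold it, against 16.9% of 11256 such genes tested in both. That comparison uses genes called in these data and is not matched for the length of the 3' UTR, so it is a description only. None of the 9 members holds the full word in its longest annotated 3' UTR (GENCODE 29), PLAU included. Of genes with a 3' UTR of like length, 2.7% (PLAUR) to 32.6% (TIMP3) hold it, and 7.6% for PLAU, so its absence from 9 genes says little. PLAU (932 bases) and TIMP2 (2690 bases) hold a 6-base part, as do 50.3% of 12612 genes, 36.4% of those with a 3' UTR of like length to PLAU and 74.7% of those like TIMP2. The sites are shown with the word in capitals and 12 bases on either side, 5′ to 3′ on the strand of the gene.
PLAU, base 266 of the 3' UTR, chr10:73916819-73916848: ctttttctggacTGAAGCctgcaggagtta
TIMP2, base 1340, chr17:78854310-78854339: agtgtggtttccTGAAGCcagtgatatggg
TIMP2, base 1993, chr17:78853657-78853686: ttctgcatcgtgGAAGCAtttgacccagag
PLAU and TIMP2 both fell in Rh30, and in RD PLAU fell and TIMP2 rose. A word is no evidence of a functional site.

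Promoters (250 bases before to 50 after the start, RefSeq, GRCh38.p14) were on hand for PLAUR, PLAU, SERPINE2, MMP14, TIMP1 and TIMP3 and were searched on both strands. The AP-1 word TGANTCA, present in 7.8% of 27305 promoters, was found in PLAUR alone, 186 bases before the start. The ETS core CCGGAA (17.6%) was found in MMP14 alone, 40 bases after the start. The GC box GGGCGG (44.6%) was found in SERPINE2 and MMP14 (1 each), TIMP1 (2) and TIMP3 (5), and TATAAA (12.0%) in none. PLAU held none of the 4 words in this window. The 2 single sites are shown with the word in capitals on the strand of the gene, since AP-1 and ETS factors are known regulators of protease genes.
PLAUR, chr19:43670337-43670366, minus strand: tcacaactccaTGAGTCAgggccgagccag
MMP14, chr14:22836605-22836634, plus strand: agcagaagaaagatcaaaaaCCGGAAaaga
PLAUR fell in RD and MMP14 moved in opposite directions in the lines, and the words are descriptions of the sequence.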

How the data were processed

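Directional libraries of polyA RNA from 12 samples had been sequenced from 1 end on an Illumina HiSeq. The methods and the labels give different read lengths. The authors used GSNAP with GRCh38, SAMtools and Cufflinks, whose deposited FPKM are not logged. The annotation release is not given in the sources used here. Of 66095 entries, 120 repeats of 117 identifiers were left out, keeping the higher mean, and the value 999999999 (17 genes, no member) was treated as missing. FPKM give no counting interval, so depth is known only as a ratio between libraries.

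Groups came from the labels. Each comparison was fitted with limma 3.58.1 in R 4.3.3 (lmFit, eBayes with trend) to log2(FPKM + 1) of the genes whose mean reached 1 FPKM, with two-sided p adjusted over all of them (Benjamini-Hochberg). RD, Rh30 and the lines under Scramble were fitted on 6 libraries each, the difference on 12. Alternatives were the study's ANOVA on FPKM, a pseudocount of 0.1, no filter, a filter of 10 FPKM in a library, rescaling to the same sum, centring on the median ratio, robust eBayes, 1 fit over 12 libraries, a replicate block and leaving out each library. The fits were tested on simulated data. Python 3.11.15, pandas 2.3.3, NumPy 2.4.6 and matplotlib 3.10.9 made tables and figures.

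The members and gene lists were chosen with earlier results of these data known. Named were the members, KDM3A, in each line the 5 called genes of the lists with the largest change and a mean of 10 FPKM or more, and MMP9, TIMP4, PLG and RECK. A gene that this rule also picked is not reported here. ANXA2 was named after its values were seen, as the partner of S100A10. Positions and 3' UTRs came from GENCODE 29, which holds 86.3% of the identifiers.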

Additional observations from a re-analysis of the deposited data

Results flagged for a closer look

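These results stood out because KDM3A-sh had unequal effects in the 2 lines when limma tested the interaction. Values are log2 effects, Rh30 minus RD. PLAT (-1.62, adjusted p = 1.12e-07), TIMP2 (-0.71, 8.42e-07), TIMP3 (-0.66, 6.84e-06) and MMP14 (-0.64, 2e-05) went up in RD and down in Rh30. PLAU (-0.65, limma adjusted p = 4.58e-06) fell in both lines, with the larger fold in Rh30. SERPINE2 (0.20, limma adjusted p = 0.00698) rose in both. MMP2 (0.56, limma adjusted p = 0.00272) and PLAUR (0.28, 0.0311) fell in RD, and neither passed the threshold in Rh30. KDM3A, the target of the shRNA, fell further in RD than in Rh30 (0.37, limma adjusted p = 0.0388), a call that 12 of 20 alternative settings did not make. Its part in the other differences was not tested.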

How the results depend on the processing

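Of 585 values of the members under alternative settings, 556 kept their direction and their side of the threshold, 15 fell short of it, 6 newly passed and 8 changed sign. The sign of PLAUR in Rh30 turned with a common FPKM sum (-0.0182) and with median centring (-0.02), and ran from -0.0342 to 0.0603 with single libraries left out. In the ANOVA on unlogged FPKM, the difference between lines is one of FPKM and not of folds, and it turned for PLAU (70.8 FPKM), SERPINE2 (-454) and TIMP1 (-8.93). Members higher in Rh30 numbered 3 with the 10 FPKM filter, 2 with 1 fit over 12 libraries, and 1 to 2 with single libraries left out (2 without Rh30 KDM3A-sh replicate 2, where MMP2 passed). Under Scramble, members higher in Rh30 numbered 1 with a common sum and 1 to 2 with single libraries left out. Over all genes, those higher in Rh30 with KDM3A-sh numbered 1621 to 2127 with single libraries left out, against 2719, and were fewest without Rh30 KDM3A-sh replicate 1 (1621) or 2 (1759). Libraries with the same number did not vary together (correlations of -0.074 to -0.009 in RD, -0.055 to -0.026 in Rh30 and -0.045 to 0.056 under Scramble). These values give no sign of pairing by number, but they cannot show whether libraries were cultured or prepared together. With a replicate block, genes higher in Rh30 numbered 1798, the PLAUR difference (0.28, limma adjusted p = 0.0736) and that of KDM3A (0.37, 0.0641) were lost, and no other member's call changed. Absolute depth cannot be read from FPKM, so how it limits the low genes is unknown.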

Other observations

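The ADAM and ADAMTS proteases, which shed membrane proteins and cleave proteoglycans, changed in 1 direction in Rh30 where they passed the test. Of 28 listed genes 17 were tested there with limma, and 9 were lower and 0 higher, against 13.2% and 15.3% of all genes (11 and 1 at an unadjusted p under 0.05, 8 and 0 in the ANOVA on FPKM), with a median log2 fold change of -0.48 against 0.03 over all genes. In RD 22 were tested, and 3 were lower and 6 higher, against 19.5% and 21.6% of all genes. ADAM10, a sheddase, was at 72 to 76 FPKM in RD Scramble and at 82 to 85 in RD KDM3A-sh (log2 fold change 0.17, limma adjusted p = 0.012). In Rh30 ADAM10 fell from 295 to 309 FPKM with Scramble to 228 to 245 with KDM3A-sh (-0.36, 0.00141). ADAM10 and ADAM9 are named here after their values were seen, and ADAM9 went the same ways (0.15, adjusted p = 0.0181, and -0.48, 0.00257).

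Cathepsins are lysosomal proteases that tumor cells also secrete, and CTSB, CTSL and CTSD, named after their values were seen, rose in RD while CTSS fell there (-0.72, limma adjusted p = 7.27e-05). CTSB was at 623 to 651 FPKM in RD Scramble and at 823 to 913 in RD KDM3A-sh (log2 fold change 0.43, limma adjusted p = 0.000439), with CTSL at 0.53 (0.000316) and CTSD at 0.32 (0.00118). In Rh30 CTSL rose by 0.53 (limma adjusted p = 0.000864), CTSK rose by 0.55 (0.0117) and CTSS fell (-0.48, 0.0087), while CTSB (0.09, 0.628) and CTSD (0.05, 0.478) did not pass. In RD CTSK did not pass (0.21, limma adjusted p = 0.169). The collagenase MMP1, likewise singled out after its values were seen, was at 1.48 to 2.77 FPKM in Rh30 with Scramble and at 0.0291 to 0.147 with KDM3A-sh. It reached the filter in Rh30 only through Scramble, so that test is not given, although the count of lower metalloproteinases in Rh30 above includes it. In RD it was at 5.64 to 7.50 and 6.78 to 8.55 FPKM (0.13, limma adjusted p = 0.462).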
